A study of Mus musculus with 15 samples.

Results

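The interferon response genes are the transcripts that cells induce when type I or type II interferon binds its receptor, together with the sensors and transcription factors that start and carry that response. A list of 35 such genes was set by symbol from knowledge of the pathway, with earlier results of these data known. Counts over the list are therefore descriptions and not tests. A probe carrying a RefSeq accession of the gene was found for 33 of the 35, and 29 were measured among the 22548 genes tested. No probe was matched to Mx1 and Mx2. Irf7, Rsad2 and Ifi44 were above background in hemibrain on 1 of the 15 arrays each and Ifit1 on 2, so no diet difference was computed for them. Of the 29 measured genes, 19 were above background on all 15 arrays and are called bright here. The other 10 were above background on 5 to 14 arrays and are called dim: Ifih1, Dhx58, Zbp1, Oasl2, Ifit2, Usp18, Gbp2, Gbp3, Irgm1 and Ifi35.

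Left hemibrains of male C57BL/6j mice were hybridised to 15 Agilent 2-colour arrays after 24 weeks on 1 of 3 diets of equal caloric content, begun at 3 weeks of age. The diets differed in their n-3 to n-6 polyunsaturated fatty acid ratio, which was 7:1 in the enriched diet (ERD), 1:1 in the balanced diet (BLD) and 1:6 in the standard diet (STD), with 5 arrays per diet. Hemibrain RNA was in Cy5 on every array, and the same reference RNA from 11 mouse cell lines was in Cy3. A level is therefore the log2 ratio of hemibrain over reference, and a difference is the change of that ratio between diets. Between 15997 (ERD 1) and 29425 (BLD 4) of the array's probes passed the scanner's test for signal over background in the hemibrain channel. The arrays lay on 8 slides and 2 scan days, and the second day held ERD 4, BLD 2, BLD 3 and BLD 4 and no STD array. The labels call the tissue hemibrain, and all 12 neuron markers and all 12 astrocyte markers examined were measured, with Snap25 averaging 3.65, 3.54 and 2.27 and Gfap 3.63, 3.71 and 2.59 in ERD, BLD and STD. These markers were higher in ERD than in STD, whereas 10 of the 12 neuron markers and 10 of the 12 astrocyte markers were lower, with medians of -0.281 and -0.161.

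Interferons act through receptors coupled to Janus kinases, which phosphorylate STAT proteins. A complex that contains STAT2 and IRF9 binds the interferon-stimulated response element in the promoters of target genes, and the products of those genes block viral RNA, viral entry and viral assembly or feed back on the pathway. In the brain a low basal activity is known in neurons and glia, and microglia and endothelial cells respond strongly when interferon is present.

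In ERD against STD, 26 of the 29 measured members had a higher mean in ERD, with a median difference of 0.246 on the log2 scale, against 52.9% higher and a median of 0.016 over all genes tested. None passed an adjusted p of 0.05 in limma, where 0.217% of all genes tested did so, and Lgals3bp was nearest at 0.0509. An unadjusted p under 0.05 with a higher ERD mean was reached by 8 members, against 7.09% of all genes tested, and by 0 members with a lower mean, against 7.54%. The 5 ERD and 5 STD arrays did not overlap for 2 members, Lgals3bp and Bst2, against 3.79% of all genes tested. The members' differences ran from -0.0032 to 0.543.

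In BLD against STD, 21 of 29 members had a higher mean in BLD, with a median difference of 0.0733, against 60.6% and 0.0538 over all genes tested. None passed the adjusted p in limma, where 0.00887% of all genes did, 6 reached an unadjusted p under 0.05 with a higher mean (7.77% of all genes) and 0 with a lower mean (3.07%), and Lgals3bp alone had non-overlapping arrays (2.89% of all genes). In ERD against BLD, 20 of 29 were higher in ERD, with a median of 0.155, against 41.9% and -0.0408 over all genes tested. No gene of the array passed the adjusted p there, so the background is 0%, and 3 members reached an unadjusted p under 0.05 (10.4% of all genes), 3 with a higher mean (2.63%) and 0 with a lower mean (7.74%). Ifi27l2a alone had arrays that did not overlap (1.37% of all genes). Among all genes with a mean ratio below 0, a set chosen after the values were seen, 56.4% were higher in ERD than in BLD, with a median of 0.0302. The comparisons of ERD and BLD with STD share the 5 STD arrays, so their differences are given side by side and not as independent results. In the moderated F test over the 3 diets 0.0488% of all genes passed and 0 members did, while 13.5% of all genes and 4 of the 29 members had an unadjusted p under 0.05.

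**Figure D1:**
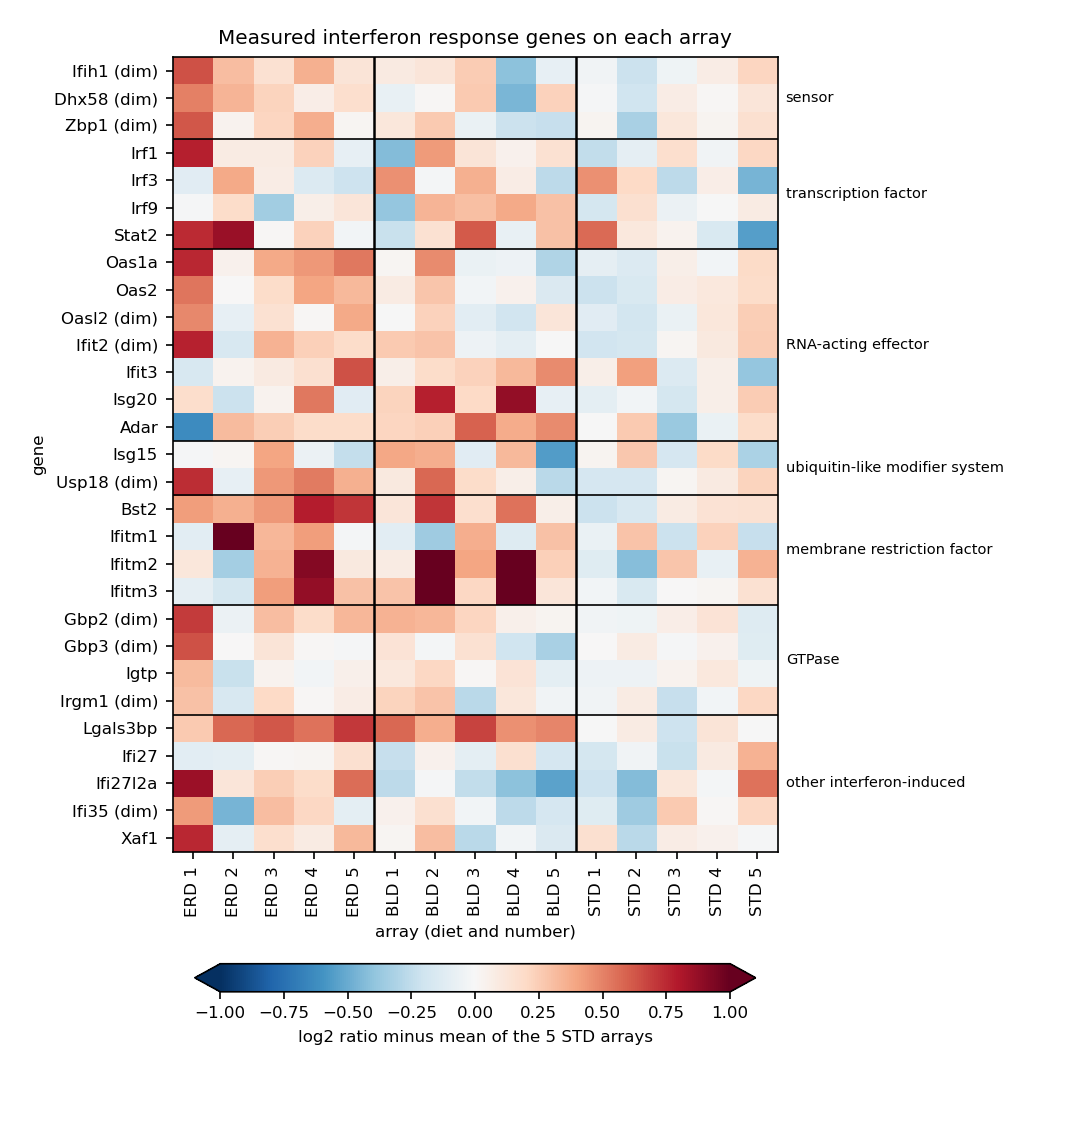
Log2 ratio of each of the 29 measured members (rows, grouped by role) on each of the 15 arrays (columns, ERD, BLD and STD from left to right), minus the mean of the 5 STD arrays; red is higher and blue lower, and the scale ends at -1 and 1. Lgals3bp is red on all 10 ERD and BLD arrays, Ifitm2 and Ifitm3 are darkest on ERD 4, BLD 2 and BLD 4, and ERD 1 is red for most dim members and blue for Adar.

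The sequences before the transcription starts show what the members share outside the measured values. RefSeq promoter windows of build GRCm38.p6, from 250 bases before to 50 bases after the start, were available for 27 members, 23 of them measured. The core of the response element was searched on both strands as a pair of GAAA repeats with any 2 bases between them. It was present in 14 of the 35 member windows (40%), against 1131 of 32851 windows over all genes (3.44%). The STAT motif TTCNNNGAA, which reads the same on both strands, was present in 9 of the 35 member windows (25.7%), against 8.3% of all windows, and the 2 motifs overlapped in 2 member windows. The 160 bases before the start are printed 5′ to 3′ on the gene's strand, with each match to that response-element core, on either strand, in capitals. They are Bst2 (chr8:71537473-71537632, minus strand), Oas1a (chr5:120907526-120907685, minus), Isg15 (chr4:156200819-156200978, minus), Ifit3 (chr19:34583369-34583528, plus) and Lgals3bp (chr11:118401960-118402119, minus), shown because Bst2 and Lgals3bp had the 2 largest ERD differences and Isg15 and Ifit3 are classical targets with small ones.
Bst2: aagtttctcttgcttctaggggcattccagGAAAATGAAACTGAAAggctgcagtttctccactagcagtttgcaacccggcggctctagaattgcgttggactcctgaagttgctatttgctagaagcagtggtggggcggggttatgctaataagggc
Oas1a: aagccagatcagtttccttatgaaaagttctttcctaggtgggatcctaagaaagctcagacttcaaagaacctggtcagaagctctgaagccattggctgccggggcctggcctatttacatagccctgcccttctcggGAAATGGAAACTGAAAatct
Isg15: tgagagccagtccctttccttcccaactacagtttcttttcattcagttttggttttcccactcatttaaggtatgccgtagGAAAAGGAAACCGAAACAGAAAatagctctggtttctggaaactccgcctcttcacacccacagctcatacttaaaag
Ifit3: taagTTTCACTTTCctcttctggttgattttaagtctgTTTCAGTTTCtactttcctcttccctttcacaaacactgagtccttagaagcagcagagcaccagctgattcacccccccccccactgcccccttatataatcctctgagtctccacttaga
Lgals3bp: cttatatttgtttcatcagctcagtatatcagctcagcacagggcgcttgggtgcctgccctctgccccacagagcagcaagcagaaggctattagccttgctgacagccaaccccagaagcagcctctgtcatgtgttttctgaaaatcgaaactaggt

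Bst2 and Oas1a each held overlapping matches, Isg15 a run of 3 overlapping matches, Ifit3 a pair on the other strand, and Lgals3bp no match in the window. Just before the start, the printed Lgals3bp stretch held a pair of GAAA repeats with 3 bases between them, a spacing the search did not count. Whether that pair acts as a response element was not tested, and other spacings were not searched in any window. The ERD minus STD difference was 0.54 for Bst2 with a match to the searched core and 0.54 for Lgals3bp without one. It was 0.43 for Oas1a but 0.02 for Isg15, each with a match. Over measured members, the median ERD minus STD difference was 0.247 for the 12 with the motif as searched and 0.188 for the 11 without. Both groups spanned nearly the same range, from 0.0223 to 0.543 with the motif and from -0.0012 to 0.543 without.

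The 3 sensors, which detect viral nucleic acid in the cytoplasm, all had a higher mean in ERD than in BLD and in STD. Ifih1 (MDA5) recognises long double-stranded RNA. Its level was -0.13, -0.46, -0.62, -0.42 and -0.64 on the ERD arrays, -0.68, -0.65, -0.52, -1.18 and -0.86 on the BLD arrays, and -0.81, -0.98, -0.81, -0.70 and -0.56 on the STD arrays. ERD 1, ERD 2 and ERD 4 lay above every STD array, and the other ERD arrays overlapped with STD. The difference was 0.32 ± 0.14 (SE) between ERD and STD (limma adjusted p = 0.306), -0.01 between BLD and STD, and 0.32 between ERD and BLD (limma adjusted p = 0.454). Ifih1 was above background on 3 of 5 ERD, 4 of 5 BLD and 5 of 5 STD arrays, and in the scanner's own log ratio its ERD minus STD difference was 0.06. Dhx58 (LGP2), which regulates MDA5, differed by 0.26 between ERD and STD and by -0.01 between BLD and STD. Zbp1, a sensor of Z-form nucleic acid that triggers necroptosis, differed by 0.25 and -0.03. Both were above background on 7 of 15 arrays.

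Of the transcription factors, Irf7 was not measured and the other 4 were bright. Stat2, the subunit that carries the activation domain of the response-element complex, differed by 0.37 between ERD and STD and by 0.15 between BLD and STD. Irf1, a factor induced chiefly by interferon gamma, differed by 0.22 and 0.06. Irf9, the DNA-binding subunit of the complex, was at 0.19 between BLD and STD and Irf3, a factor activated downstream of the sensors, at 0.12. Between ERD and STD both were at -0.00, which is less than their standard errors of 0.149 and 0.183. All 4 overlapped between diets, and their lowest adjusted p between ERD and STD in limma was 0.465.

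The 7 measured RNA-acting effectors all had a higher mean in ERD and in BLD than in STD, in the probe chosen for each gene. Over all genes tested, 60.6% were higher in BLD than in STD. For Oas1a, Oas2, Oasl2 and Ifit2 the BLD minus STD difference was smaller than its standard error. Oas1a is an oligoadenylate synthetase, which makes the second messenger of RNase L. Its level was -2.59, -3.30, -2.96, -2.91 and -2.82 in ERD, -3.33, -2.87, -3.41, -3.39 and -3.64 in BLD, and -3.43, -3.48, -3.29, -3.37 and -3.15 in STD. Every ERD array but ERD 2 lay above all STD arrays, and 1 BLD array, BLD 2, did so. The differences were 0.43 ± 0.15 (SE) between ERD and STD (limma adjusted p = 0.218), 0.01 between BLD and STD, and 0.41 ± 0.15 between ERD and BLD (limma adjusted p = 0.413). A second probe of the gene, above background on 11 arrays, gave 0.26 between ERD and STD, -0.04 between BLD and STD and 0.30 between ERD and BLD.

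Oas2, a further synthetase of the family, was at -1.65, -2.18, -1.998, -1.79 and -1.86 in ERD, at -2.10, -1.91, -2.21, -2.14 and -2.33 in BLD and at -2.40, -2.34, -2.11, -2.08 and -1.996 in STD. ERD 1, ERD 4 and ERD 5 were above every STD array and the rest overlapped. The difference between ERD and STD was 0.29 ± 0.12 (limma adjusted p = 0.298), but 0.06 in the scanner's log ratio and -0.01 from Cy5 alone. Oasl2, an OAS-like protein, differed by 0.19 between ERD and STD, Ifit2, which binds viral RNA, by 0.28, and Ifit3, its partner, by 0.15. Isg20, an RNA exonuclease, differed by 0.08 between ERD and STD and by 0.40 between BLD and STD (limma adjusted p = 0.461). Its highest arrays were BLD 4, BLD 2 and ERD 4, all of the second scan day. Another, dimmer Isg20 probe, above background on 14 arrays, gave 0.31 between ERD and STD and 0.25 between BLD and STD.

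Adar deaminates adenosine in double-stranded RNA and has an interferon-inducible long form. It was at 1.38, 2.32, 2.24, 2.19 and 2.18 in ERD, at 2.21, 2.24, 2.59, 2.37 and 2.47 in BLD and at 1.998, 2.26, 1.63, 1.93 and 2.19 in STD. ERD 1 was the lowest of the 15 arrays, BLD 3, BLD 4 and BLD 5 were above every STD array, and the groups overlapped. The difference was 0.06 ± 0.17 between ERD and STD (limma adjusted p = 0.902) and 0.38 ± 0.17 between BLD and STD (limma adjusted p = 0.459). A second, dimmer probe gave 0.01 and 0.06.

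The ubiquitin-like modifier system was measured by its modifier and its protease. Isg15, which is conjugated to proteins after interferon, differed by 0.02 between ERD and STD and by 0.08 between BLD and STD. Another, dimmer Isg15 probe, above background on 6 arrays, gave 0.19 and -0.21, and 0.40 between ERD and BLD (limma unadjusted p = 0.02). Usp18, which removes Isg15 and restrains the interferon receptor, was at -1.96, -2.77, -2.26, -2.17 and -2.33 in ERD, at -2.59, -2.12, -2.50, -2.63 and -2.96 in BLD and at -2.86, -2.86, -2.67, -2.60 and -2.46 in STD. Every ERD array except ERD 2 was above all STD arrays, as was BLD 2. The difference was 0.39 ± 0.16 between ERD and STD (limma adjusted p = 0.288) and 0.13 between BLD and STD, and the scanner's log ratio gave 0.59 and 0.42. Usp18 was above background on 4 of 5 arrays in each diet.

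Bst2 (tetherin), which holds budding virions at the cell surface, had one of the 2 largest ERD differences. Its level was -2.62, -2.68, -2.61, -2.25 and -2.32 in ERD, -2.92, -2.32, -2.87, -2.50 and -2.98 in BLD, and -3.25, -3.20, -2.96, -2.90 and -2.89 in STD. The lowest ERD array was above the highest STD array, while BLD 1 and BLD 5 fell within the STD range. The mean was -2.50 ± 0.20 in ERD, -2.72 ± 0.29 in BLD and -3.04 ± 0.17 in STD (SD, n = 5 each). That is 1.46-fold higher in ERD than in STD, a difference of 0.54 ± 0.15 (SE, limma adjusted p = 0.128), and 0.32 between BLD and STD (limma adjusted p = 0.453). Within the slides that held both diets, ERD minus STD was 0.52, 0.64 and 0.58. BLD minus STD was -0.083 on the 1 slide that held both. It was 0.096 with slide as a block, 0.11 with scan day as a block and 0.09 on the arrays of the first day alone. The scanner's log ratio gave 0.43 between ERD and STD, with overlapping arrays. Cy5 alone gave 0.37 between ERD and STD and 0.00 between BLD and STD.

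Ifitm2 and Ifitm3 block the fusion of viruses with endosomal membranes, and both were highest on the same 3 arrays. Ifitm3 was at -2.72, -2.81, -2.21, -1.75 and -2.34 in ERD, at -2.34, -1.59, -2.42, -1.56 and -2.51 in BLD and at -2.66, -2.78, -2.63, -2.61 and -2.48 in STD. Ifitm2 was at -2.30, -2.75, -2.06, -1.49 and -2.31 in ERD, at -2.33, -1.27, -2.02, -1.32 and -2.17 in BLD and at -2.53, -2.84, -2.13, -2.48 and -2.06 in STD. ERD 4, BLD 2 and BLD 4 stood above the other 12 arrays for both genes, and all 3 came from the second scan day, which held no STD array. The BLD minus STD difference was 0.55 ± 0.22 for Ifitm3 (limma adjusted p = 0.44) and 0.59 ± 0.25 for Ifitm2 (limma adjusted p = 0.443). With scan day as a block these were 0.16 and 0.12, and on the arrays of the first day alone 0.21 and 0.16. BLD 3, also of the second day, did not share the high values, at -2.42 and -2.02. Ifitm1 differed by 0.35 between ERD and STD and by 0.02 between BLD and STD, and its highest array was ERD 2. The Ifitm genes, and the Oas genes, have close relatives in sequence, and what the probes share with them was not tested.

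The GTPases of the guanylate-binding and immunity-related families act on the membranes of intracellular pathogens. Mx1 and Mx2 had no probe matched, and all 4 measured GTPases had a higher mean in ERD than in STD. Gbp2 differed by 0.29 between ERD and STD and by 0.19 between BLD and STD, Gbp3 by 0.15 and -0.05, Irgm1 by 0.08 and 0.06, and Igtp by 0.03 and 0.07. Their lowest adjusted p in limma was 0.311, for Gbp2 between ERD and STD. In the scanner's log ratio Gbp2 stayed higher at 0.58, while Irgm1 was at -0.40 and Igtp at -0.27.

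Lgals3bp, a secreted glycoprotein that binds galectins and is induced by interferon, was the member with the lowest adjusted p. Its level was -1.30, -0.99, -0.94, -1.03 and -0.86 in ERD, -0.99, -1.20, -0.89, -1.11 and -1.08 in BLD, and -1.57, -1.48, -1.77, -1.44 and -1.57 in STD. All 10 ERD and BLD arrays were above the highest STD array, and ERD and BLD overlapped. The mean was -1.02 ± 0.17 in ERD, -1.06 ± 0.12 in BLD and -1.57 ± 0.13 in STD (SD, n = 5 each). The difference was 0.54 ± 0.11 (SE), or 1.46-fold, between ERD and STD (limma adjusted p = 0.0509) and 0.51 ± 0.11, or 1.42-fold, between BLD and STD (limma adjusted p = 0.159), and it was 0.03 between ERD and BLD.

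The Lgals3bp difference had the same sign in the other readings of the same arrays, and its adjusted p moved with the setting. The scanner's log ratio gave 0.57 between ERD and STD (limma adjusted p = 0.0856), with arrays that did not overlap, and 0.40 between BLD and STD. Cy5 alone gave 0.45 and 0.23, and the reference in Cy3 differed by -0.04 and -0.17. Within slides, ERD minus STD was 0.49, 0.63 and 0.58, and BLD minus STD was 0.36 on the 1 slide that held both. A second bright probe of the gene gave 0.34 between ERD and STD (limma unadjusted p = 0.179) and 0.57 between BLD and STD (limma unadjusted p = 0.0304). Leaving out ERD 1, its lowest ERD array, gave 0.61 between ERD and STD (limma adjusted p = 0.0225). Leaving out BLD 3 gave 0.54 (limma adjusted p = 0.049), and over all 15 single omissions the adjusted p ranged from 0.0225 to 0.141. With all its measured probes averaged the ERD minus STD difference was 0.44 (limma adjusted p = 0.206). With slide as a block it was 0.52 (limma adjusted p = 0.464), and with median centring in place of loess 0.41 (limma adjusted p = 0.758). Between BLD and STD the slide block gave 0.53 (limma adjusted p = 0.915).

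**Figure D2:**
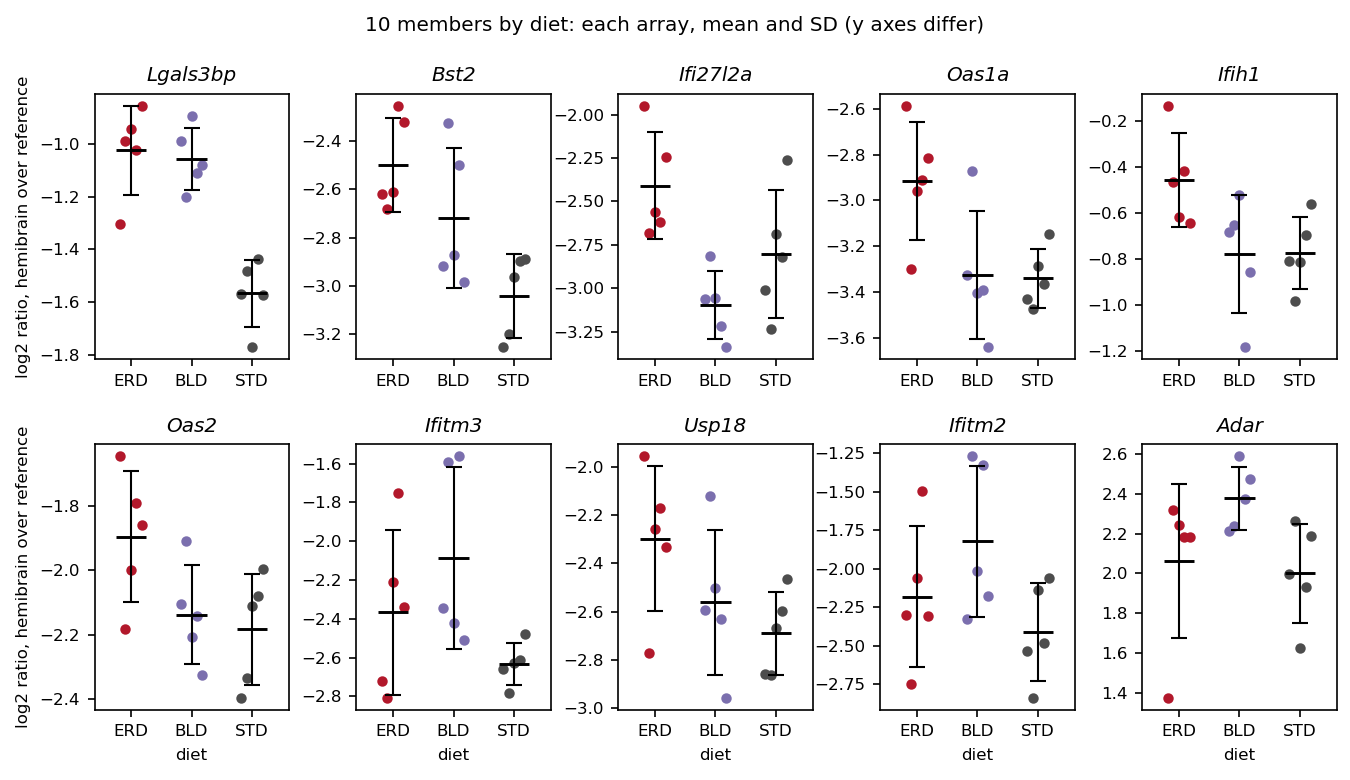
Log2 ratio of hemibrain over reference for 10 members in ERD, BLD and STD (points, 1 array each; bar and whiskers, mean and SD, n = 5). Lgals3bp shows 10 ERD and BLD arrays above the 5 STD arrays, Bst2 5 ERD arrays above the STD arrays, and Ifi27l2a 5 ERD arrays above the BLD arrays.

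Ifi27l2a, a small interferon-induced membrane protein, had the largest difference between ERD and BLD. Its level was -1.95, -2.68, -2.56, -2.62 and -2.25 in ERD, -3.06, -2.81, -3.05, -3.22 and -3.34 in BLD, and -3.01, -3.23, -2.69, -2.82 and -2.26 in STD. The lowest ERD array was above the highest BLD array, and the STD arrays spread over both ranges. The difference was 0.69 ± 0.18 (SE), or 1.61-fold, between ERD and BLD (limma adjusted p = 0.302), 0.39 between ERD and STD (limma adjusted p = 0.332) and -0.29 between BLD and STD (limma adjusted p = 0.542). Cy5 alone gave 0.68 and the scanner's log ratio 0.91 between ERD and BLD. On slides 1, 3 and 7, which held both diets, ERD minus BLD was 0.32, 1.12 and 1.09.

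Of the remaining interferon-induced members, Xaf1, a pro-apoptotic protein, differed by 0.25 between ERD and STD and by -0.02 between BLD and STD. Ifi35, a cytoplasmic partner of Nmi, differed by 0.08 and -0.05, and Ifi27 by -0.00 and -0.06. Ifi27 differed by less than its standard error of 0.12 in all 3 comparisons.

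**Figure D3:**
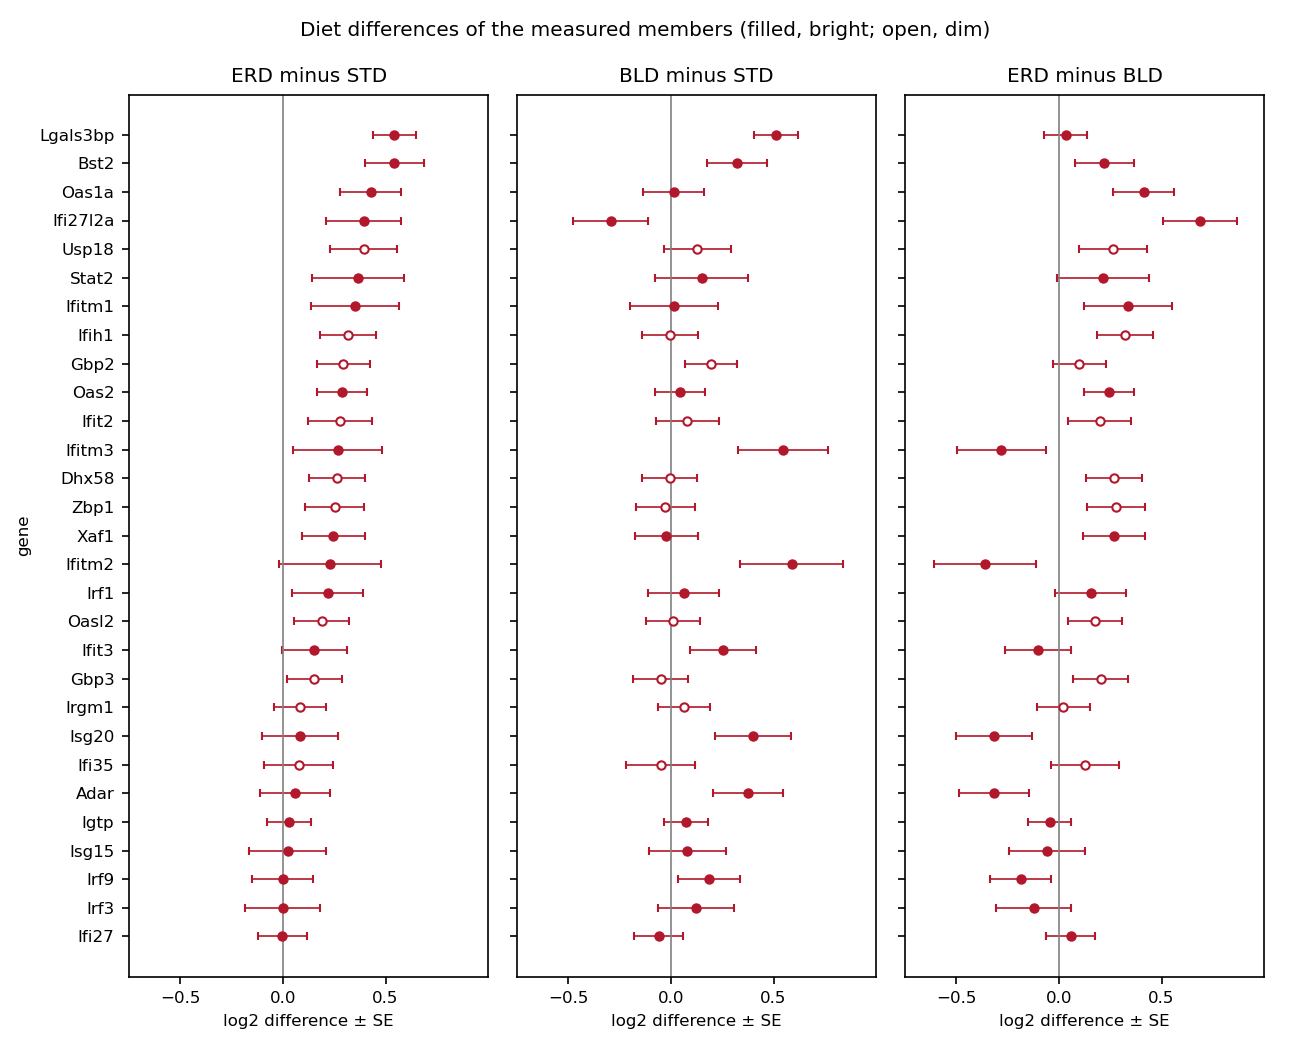
Log2 difference between diets (points) with its standard error (whiskers) for the 29 measured members, for ERD minus STD, BLD minus STD and ERD minus BLD, ordered by the first; filled points are bright and open points dim members. In ERD minus STD 26 points lie above 0, and in BLD minus STD Lgals3bp, Ifitm2 and Ifitm3 are farthest to the right.

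Bright and dim members are given apart, because dim values lie closer to background. Between ERD and STD, 16 of 19 bright members were higher with a median of 0.229, and 10 of 10 dim members with a median of 0.257. Between BLD and STD, 16 of 19 bright members were higher with a median of 0.122, against 5 of 10 dim members with a median of 0.00251. Between ERD and BLD, 10 of 19 bright members were higher with a median of 0.0323, against 10 of 10 dim members with a median of 0.201. Of the 29 measured members, 26 averaged below 0, which is lower in hemibrain than in the reference, and Adar and Ifitm1 were above the reference on all 15 arrays. Among all genes with a mean ratio below 0, a set chosen after the values were seen, the ERD minus STD median was 0.0407 for bright and 0.0546 for dim genes, and 56.1% and 62.1% were higher. In that set the BLD minus STD medians were 0.0458 and -0.0135, with 58.6% and 46% higher. The ERD minus BLD medians were -0.00354 for bright and 0.0702 for dim genes, with 49.4% and 66.6% higher.

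The level of the members also differed between arrays of 1 diet. The median over the 29 members, relative to the STD mean of each gene, was 0.429, 0.0232, 0.218, 0.21 and 0.157 on the ERD arrays, 0.0911, 0.275, 0.171, 0.0538 and -0.0313 on the BLD arrays, and -0.0493, -0.0931, 0.0179, 0.0568 and 0.158 on the STD arrays. ERD 1 was highest, ERD 2, ERD 5, BLD 1, BLD 4 and BLD 5 lay within the STD range, and the diets overlapped. The dim members set ERD 1 apart, with a median of 0.629 there and between -0.0684 and 0.222 on the other ERD arrays. ERD 1 also had the fewest probes above background in Cy5, 15997, and its part in the dim members' difference was not tested. Without ERD 1 the ERD minus STD median over all members was 0.193, with 27 of 29 higher, the dim median was 0.157 and the dim median between ERD and BLD was 0.0934. Without ERD 4, of the second scan day, the bright median between ERD and STD was 0.151.

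**Figure D4:**
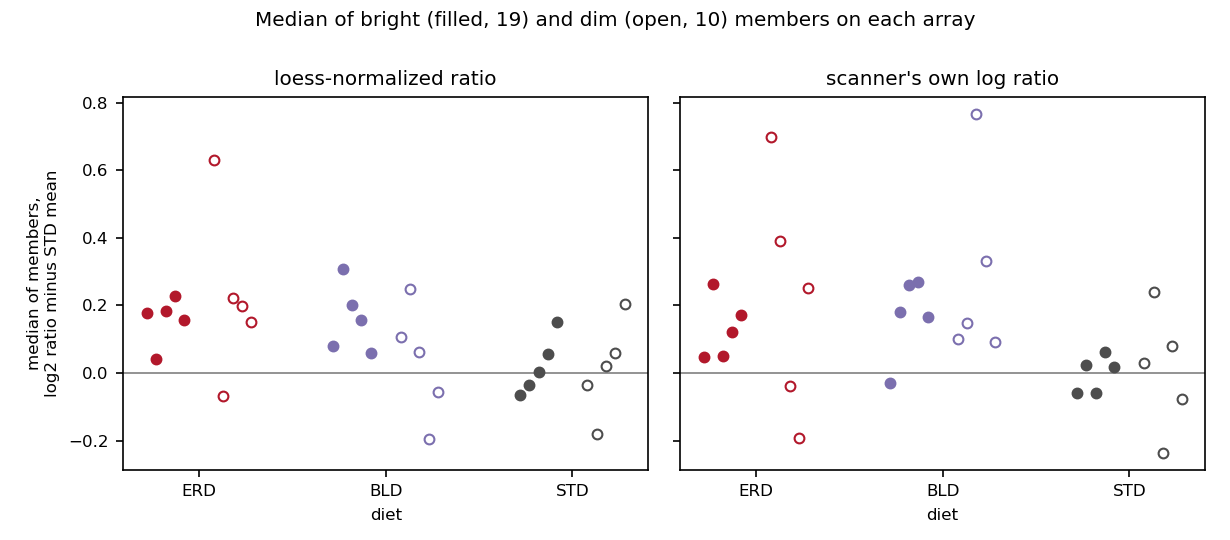
Median over the 19 bright (filled) and the 10 dim members (open) on each array, as log2 ratio minus the mean of the STD arrays, for ERD, BLD and STD; the left panel uses the loess-normalized ratio and the right panel the scanner's own log ratio. ERD 1 is the highest open point in ERD in both panels, at 0.629 and 0.698, and the ranges of the diets overlap.

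The scanner software deposits its own log ratio, made from background-subtracted and dye-normalized signals, and the members were read through it as well. Between ERD and STD, 24 of 29 were higher with a median of 0.184, against 46.1% and -0.0435 over all genes tested, and 8 reached an unadjusted p under 0.05 with a higher mean, against 8.88% of all genes in that reading. The bright members were at a median of 0.186 and the dim at 0.0754, where all bright genes were at 0.0187 and all dim genes at -0.209. Between BLD and STD the median was 0.202, with 10 of 10 dim members higher, against 54.7% of all dim genes. Between ERD and BLD the median was 0.00274, with 3 of 10 dim members higher, against 27.9% of all dim genes. There the loess-normalized ratio gave 10 of 10 with a normexp offset of 50, against 39.2% of all dim genes. With an offset of 1 it gave 6 of 10, against 40.2%. The scanner's reading differs in background subtraction as well as dye normalization, and which of them moved the dim members was not tested.

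Dhx58, Zbp1, Stat2 and Ifitm1 had larger ERD minus STD differences in the scanner's log ratio, at 0.92, 0.69, 0.60 and 0.59. Ifih1, Oas2 and Ifit2 were near 0 there, at 0.06, 0.06 and 0.03, and Oasl2, Irgm1, Ifi35, Igtp and Isg20 were below 0. From Cy5 alone, 19 of 29 members were higher in ERD than in STD with a median of 0.0663, against 50.7% and 0.00336 over all genes tested. The reference channel, which holds the same RNA on every array, had a median of -0.0359 over the members and -0.0134 over all genes tested between ERD and STD. Between BLD and STD the reference channel was lower for 22 of 29 members, with a median of -0.0986 against -0.0351 over all genes tested, and 5 members reached an unadjusted p under 0.05 with a lower mean, as did 2461 of the 22548 genes tested. From Cy5 alone, 15 of 29 members were higher in BLD than in STD, with a median of 3.61e-05, where the ratio gave 0.0733.

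**Figure D5:**
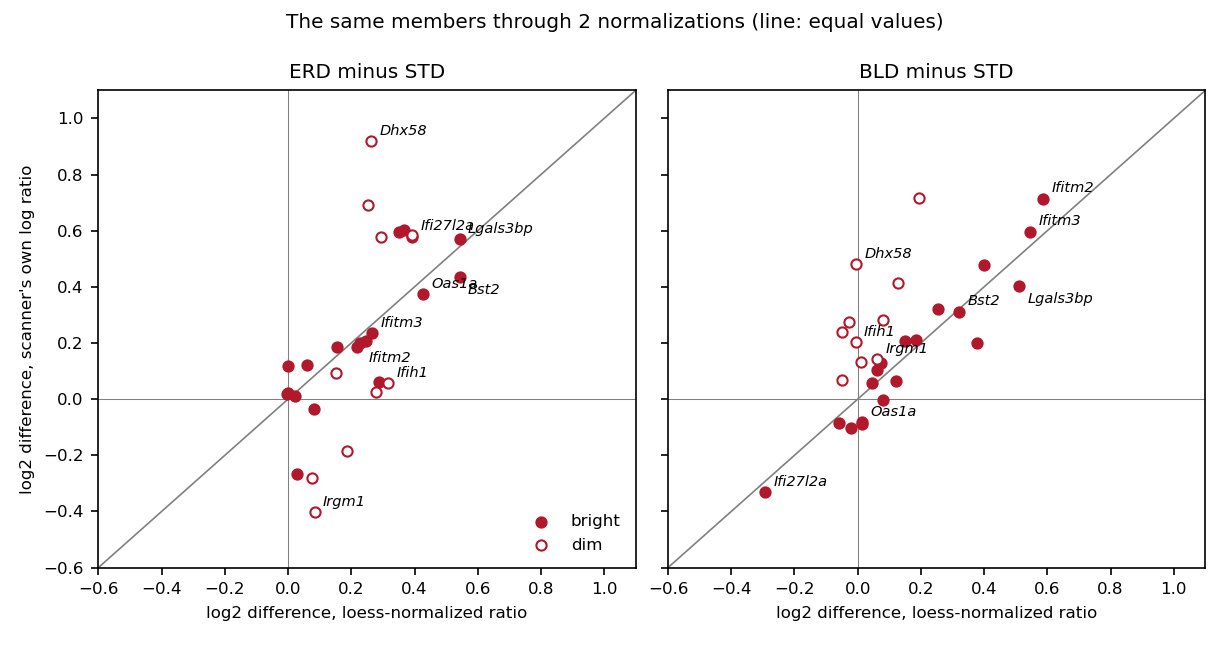
Log2 difference of each measured member in the loess-normalized ratio (x axis) and in the scanner's own log ratio (y axis), for ERD minus STD and BLD minus STD; filled points are bright and open points dim members, and the diagonal marks equal values. Lgals3bp, Bst2, Oas1a and, in BLD minus STD, Ifitm2 and Ifitm3 lie near the diagonal, and dim members such as Dhx58 (0.26 and 0.92) and Irgm1 (0.08 and -0.40) lie far from it in ERD minus STD.

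Slides that held more than 1 diet gave the comparison within a slide. For ERD minus STD the member medians were 0.0904, 0.265 and 0.124 on slides 4, 5 and 7, where all genes tested were at 0.0535, -0.0166 and -0.00297. For ERD minus BLD they were 0.0426, 0.375 and 0.189 on slides 1, 3 and 7. For BLD minus STD the 1 shared slide gave -0.11. With slide as a block the member median was 0.195 between ERD and STD, with 24 of 29 higher, and -0.0436 between BLD and STD, with 12 of 29 higher. With scan day as a block it was 0.216 and 0.0494.

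The counts of members with a higher mean and an unadjusted p under 0.05 moved with single arrays. The 8 members between ERD and STD became 4 without ERD 1, 5 without ERD 5, 4 without STD 1 and 3 without STD 2, when 7.14%, 8.18%, 5.75% and 5.77% of all genes had a higher mean and such a p. Without ERD 2 there were 10 (6.12% of all genes). The number with a higher ERD mean stayed between 24 and 28 of 29 over the 15 omissions. The 6 members between BLD and STD became 2 without BLD 2 (4.86% of all genes), 1 without BLD 4 (7.04%), 2 without STD 1 (5.86%), 3 without STD 2 (7.71%) and 3 without STD 4 (5.79%), and without STD 2 a further member reached that p with a lower mean. Without BLD 1 there were 7 between BLD and STD (10.3% of all genes). The 3 between ERD and BLD became 7 without ERD 2 (2.96% of all genes) and 8 without BLD 2 (2.70%). They became 2 without ERD 1 (1.07%) and 2 without BLD 4 (1.53%).

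The other genes of the pathway were counted in lists set by symbol, also with earlier results of these data known. Of 47 further interferon-induced genes measured, 36 (76.6%) were higher in ERD than in STD with a median of 0.188, against 52.9% and 0.016 over all genes tested. Of these 47, 0 passed the adjusted p in limma (0.217% of all genes) and 7 reached an unadjusted p under 0.05 with a higher mean (7.09% of all genes). The mean of the 22 above background on all arrays, relative to STD, was highest on ERD 4, BLD 2 and BLD 4, at 0.474, 0.465 and 0.376. Those arrays came from the second scan day, which held no STD array. ERD 3 and ERD 5, at 0.0501 and 0.0486, lay within the STD range of -0.149 to 0.0797. The part of scan day in this list was not tested. Psme1, a subunit of the proteasome activator PA28, averaged -0.46 ± 0.16 in ERD, -0.67 ± 0.05 in BLD and -0.95 ± 0.11 in STD (SD, n = 5 each), a difference of 0.49 between ERD and STD (limma adjusted p = 0.0545) and 0.51 in the scanner's log ratio. Oas1c, a relative of Oas1a, differed by 0.46 (limma adjusted p = 0.132). Between BLD and STD, 30 of the 47 (63.8%) were higher, with a median of 0.0616, which is close to the 60.6% and 0.0538 over all genes tested.

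Of 16 interferon genes with a probe, 4 were measured, with a median of 0.191 between ERD and STD and 0.305 between BLD and STD. One of the 4, Ifna12, was above background on 2 ERD, 3 BLD and 0 STD arrays, so it was measured only through the diets where it was higher. Its BLD minus STD difference of 0.546 was the largest of the 4. The medians therefore cannot show whether interferon genes differed between diets. The nearest to the threshold were Ifnl3 at 0.29 and Ifna1 at 0.10 between ERD and STD. Of 19 receptors and proximal signalling genes, 12 (63.2%) were higher in ERD than in STD with a median of 0.107, against 52.9% and 0.016 over all genes tested. None of them passed the adjusted p in limma, where 0.217% of all genes did. Pias1, an inhibitor of activated STAT proteins, differed by -0.63 (limma adjusted p = 0.233) and Jak2, a receptor kinase, by 0.46 (limma adjusted p = 0.267). Of 15 adaptors and kinases of nucleic acid sensing, 12 (80%) were higher with a median of 0.117, against the same 52.9% and 0.016. Rnf135, a ubiquitin ligase of the RIG-I pathway, differed by 0.36 (limma adjusted p = 0.151) and Traf3, an adaptor of the sensors, by -0.42 (limma adjusted p = 0.188).

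Markers of the cell types that carry an interferon response were set beside these values. In bulk tissue, fewer cells of a type and less RNA per cell cannot be told apart. Of 17 microglia markers, 8 were higher in ERD than in STD, with a median of -0.0779 and a range from -0.575 to 1.2. The mean level, relative to STD, of the 14 above background on all arrays ran from -0.263 to 0.0676 on ERD arrays. It ran from -0.0573 to 0.117 on BLD arrays and from -0.116 to 0.111 on STD arrays. Trem2 differed by 0.43 and Ctss by -0.56. Of 16 endothelial markers, 6 were higher with a median of -0.00884, and of 9 blood and leukocyte markers measured of 18 with a probe, 7 were higher with a median of 0.164. Astrocyte, oligodendrocyte and neuron markers were higher in 2 of 12, 2 of 10 and 2 of 12, with medians of -0.161, -0.245 and -0.281, and markers of meninges and choroid plexus in 6 of 14, with a median of -0.0953. Over all genes tested, 52.9% were higher in ERD than in STD, with a median of 0.016. Between BLD and STD the medians were 0.0182 for microglia, 0.169 for endothelial and 0.24 for blood and leukocyte markers. They were -0.103 for astrocyte, 0.141 for oligodendrocyte, 0.05 for neuron and -0.007 for meninges and choroid plexus markers, against 0.0538 over all genes tested. Of the 9 blood and leukocyte markers, 8 were higher in BLD, against 60.6% of all genes tested. No marker of these lists passed the adjusted p in limma between ERD and STD, where 0.217% of all genes did. The part of cell composition in the members' differences was not tested.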

How the data were processed

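The members and gene lists were chosen with earlier results of these data known. Each array file holds the deposited intensity of every spot in both channels, and per the file headers it was made with Agilent Feature Extraction. The deposited log10 ratio of Cy5 over Cy3, background-subtracted and dye-normalized by the authors' scanner software, was converted to log2 as an alternative. Median intensities were background-corrected with normexp (offset 50), loess-normalized within arrays and fitted over all 15 arrays in limma 3.58.1, with Benjamini-Hochberg adjustment over 22548 genes at 0.05. Outlier spots (0.574%) were dropped, so a fit uses the values that remain. The probe with the highest mean processed Cy5 signal stood for a gene, and genes above background in Cy5 on fewer than 5 arrays were left out. Every array's value is given for Lgals3bp, Bst2 and the members of lowest F-test p until 10 were reached, and for the others the difference. Diet came from the diet label, since every title carries the word control. Precision is set by the count of arrays, 5 per diet. The labels do not say that arrays come from separate animals, so p-values measure the spread between these samples. Cy5 held hemibrain RNA on every array, so a dye effect was not estimated. The fit was also run on simulated data with independent noise and no slide, scan-day or single-array effects. That run cannot speak to such effects in these arrays.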

Additional observations from a re-analysis of the deposited data

Results flagged for a closer look

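Adar on ERD 1 stood apart from the other ERD arrays, at a log2 ratio of 1.375 where the next was 2.183. The gap was 0.858 of the range of the 5 ERD values, above Dixon's critical value of 0.71. It was the single such value among the 30 groups examined, and chance gives about 1 in 20. In the scanner's own log ratio the same probe read 2.367 on ERD 1, among ERD values of 2.34 to 2.578, and did not stand apart. ERD 1 also had the fewest probes above background, and its part in this value was not tested.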

How the results depend on the processing

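No paired analysis was possible because the labels give the arrays no replicate number that links diets; slides that held 2 diets were used as a block instead. No member passed the test, and over 25 other settings the sign of a member's difference changed in 59 of 715 values between ERD and STD, 91 of 715 between BLD and STD and 55 of 715 between ERD and BLD. The scanner's log ratio turned 8, 8 and 9 of the 29. Lgals3bp between ERD and STD passed 0.05 without ERD 1, without BLD 3 and with no filter on dim probes (limma adjusted p = 0.0338). It did not pass in any other setting, and its limma adjusted p was 0.464 with slide as a block and 0.758 with median centring. Counts of genes past the adjusted p were 49 between ERD and STD, 2 between BLD and STD, 0 between ERD and BLD (2339 at an unadjusted p under 0.05) and 11 in the F test. The scanner's log ratio gave 1 gene between BLD and STD and 1 in the F test, with member medians of 0.202 for BLD minus STD and 0.00274 for ERD minus BLD. A normexp offset of 1 gave 1 gene between BLD and STD and 1 in the F test, and 20 higher and 31 lower between ERD and STD, where the fit reported has 24 and 25. Median centring moved the median of all genes to 0.179 for BLD minus STD and -0.203 for ERD minus BLD. It gave 0 genes between ERD and STD (1604 unadjusted), 1 between BLD and STD and 1 in the F test, with member medians of 0.29 for BLD minus STD and -0.188 for ERD minus BLD. Cy5 alone gave a median of 0.0663 for ERD minus STD and 20 genes in the F test. With no filter on dim probes 5 genes passed between BLD and STD. Genes above background on all arrays gave 32 between ERD and STD, 5 between BLD and STD and a median of 0.0323 for ERD minus BLD. Slide as a block gave 1 gene between ERD and STD, 0 between BLD and STD (1207 unadjusted), 1 between ERD and BLD and 1 in the F test. Scan day as a block gave 11, 1 between BLD and STD, and 3 in the F test. The arrays of the first scan day alone, chosen after seeing the data, gave 0 (2617 unadjusted), 1, 1 and 1. The cause was not tested. Leaving out 1 array at a time gave 5 to 172 genes between ERD and STD, 1 to 10 between BLD and STD, 0 to 1 between ERD and BLD and 1 to 24 in the F test. Member medians ranged from 0.193 to 0.267 for ERD minus STD, from 0.0184 to 0.1 for BLD minus STD and from 0.0819 to 0.211 for ERD minus BLD. Signal near background limits the dim members.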
